A study of Mus musculus with 6 samples.

Results

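The mRNA of GC-2 spd(ts) cells exposed to bisphenol A (BPA) was compared with that of vehicle-treated cells, gene by gene, over all genes counted well enough to give a usable ratio. Members were the genes whose normalised values in the control and the BPA library summed to at least 50, which kept 13511 of the 22127 genes listed. GC-2 spd(ts), a line of mouse origin, was derived from spermatocytes and immortalised with a viral large T antigen together with a temperature-sensitive p53. Both cultures spent 12 h without serum before an exposure of 48 h, during which the medium held 10% serum. The treated culture received 120 µM BPA, dissolved in dimethyl sulfoxide (DMSO), and the control received 0.1% DMSO and 0 µM BPA. Strand-specific TruSeq libraries were sequenced from 1 culture per group, so 2 of the 6 libraries of the series are compared here and no difference has a replicate check.

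BPA is a monomer of polycarbonate plastic and epoxy resin that binds estrogen receptors and, at high concentrations, disturbs redox balance and the endoplasmic reticulum in cultured cells. Spermatocytes are the male germ cells that carry out meiosis, and they depend on neighbouring somatic cells for growth factors, metabolites and adhesion. In a growing culture, the mRNAs of membrane receptors, matrix, ribosome assembly, splicing and organelles make up much of the transcriptome, and each of these programmes is under separate transcriptional control.

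The control library held 32312872 reads and the BPA library 33071378, and the members took 99.9% and 99.8% of them. A ratio below is the log2 of the normalised BPA value over the normalised control value, each with 1 added, and the interval beside it is an exact 95% binomial (Clopper-Pearson) interval on the reads. They cover counting error alone: amplified reads without a molecular identifier need not each stand for a molecule, and variation between cultures is not in them. A count of 0 allows up to 0.0928 CPM (reads scaled to the library total) in the control library and 0.0907 CPM in the BPA library.

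The labelled cell type was checked against marker genes. Of 19 germ cell markers, 6 were listed and 1 was a member, Gfra1, the receptor subunit for the factor GDNF, with 52 reads in the control library and 104 with BPA. The germ cell helicase gene Ddx4 had 0 and 9 reads, and the synaptonemal complex gene Sycp3 had 6 and 0. All listed germ cell markers together came to 2.32 CPM in control and 4.08 CPM with BPA. Markers of peritubular cells and fibroblasts came to 5813 and 3160 CPM. Among them the collagen gene Col1a1 had 79234 and 39365 reads and the intermediate filament gene Vim 51685 and 36449. Other markers of that set were near 0, with Dcn at 0 and 8 reads and Myh11 at 0 and 9, and Thy1 and Lum were not listed. Of 10 Sertoli cell markers 5 were members, among them Sox9 (389 and 525 reads) and Gata4 (1959 and 1795), but the more specific Amh had 10 and 33 reads, Wt1 8 and 26 and Dhh 4 and 7. Of 7 Leydig cell markers 2 were members, the regulator Nr5a1 (1731 and 2242) and Star (69 and 90), and the hormone gene Insl3 had 0 and 1. Leukocyte markers came to 10.1 and 15.5 CPM, nearly all of it from Cd68 (147 and 236 reads) and Cd14 (161 and 231), while Ptprc had 3 and 0. Endothelial markers came to 4.30 and 3.17 CPM, mostly from Kdr (127 and 77 reads), while Cdh5 had 9 and 5. The marker levels therefore go against the germ cell label in both libraries, and the cells are called here by the name of the line.

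Most members had similar values in both libraries. The median ratio was 0.01, the central 95% of ratios ran from -0.93 to 1.11, and 11456 members (84.8%) lay within 1.5-fold of each other. At least 2-fold higher with BPA were 435 members (3.22%), and at least 2-fold lower were 278 (2.06%), together 713 (5.28%). With the whole counting interval past 2-fold, 194 were higher (1.44%) and 125 lower (0.925%). The interval left out equality for 8406 members (62.2%), so at this depth most ratios differed from equality by more than counting error. An effect of BPA and a difference between the cultures from any other source cannot be told apart in 1 library per group. In bulk RNA, fewer cells of a kind and less RNA per cell cannot be told apart.

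**Figure D1:**
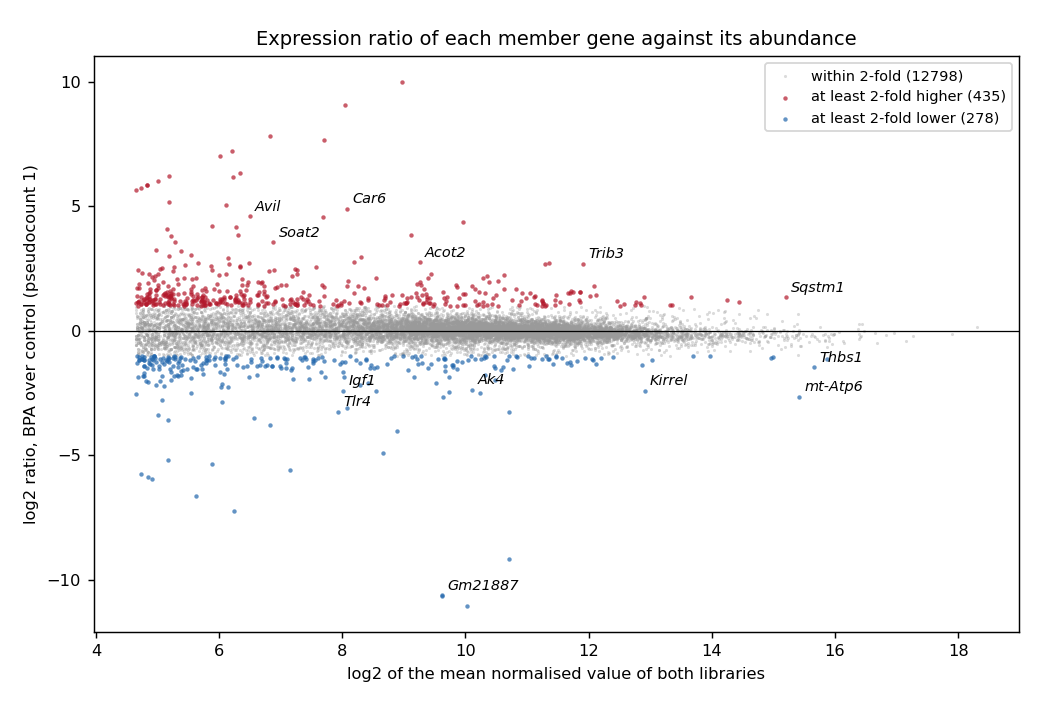
Each point is 1 of the 13511 member genes, placed by the log2 of its mean normalised value in both libraries (x axis) and its log2 ratio of BPA over control (y axis). Red points are the 435 genes at least 2-fold higher, blue points the 278 at least 2-fold lower, and named examples are marked. The cloud narrows around 0 as abundance grows.

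Depth set what could be read from a ratio. Among the 1162 members with a summed value of 50 to 100, the robust SD of the ratios (the scaled median absolute deviation) was 0.72, while counting error alone would give 0.36, and 11.4% were at least 2-fold higher and 7.57% lower. Among the 3271 members above 5000, the robust SD was 0.23 against 0.031 from counting, and 1.07% and 0.825% passed 2-fold. The spread was thus wider than counting error in every depth class, and 2-fold ratios were rarer in each deeper class. The median ratio was 0.03 in the lowest class, 0.04 from 1000 to 5000 and -0.07 above 5000. Just inside the threshold for membership, from 50 to 55, 34 of 164 genes were past 2-fold, and just outside it, from 45 to 50, 31 of 169 were.

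**Figure D2:**
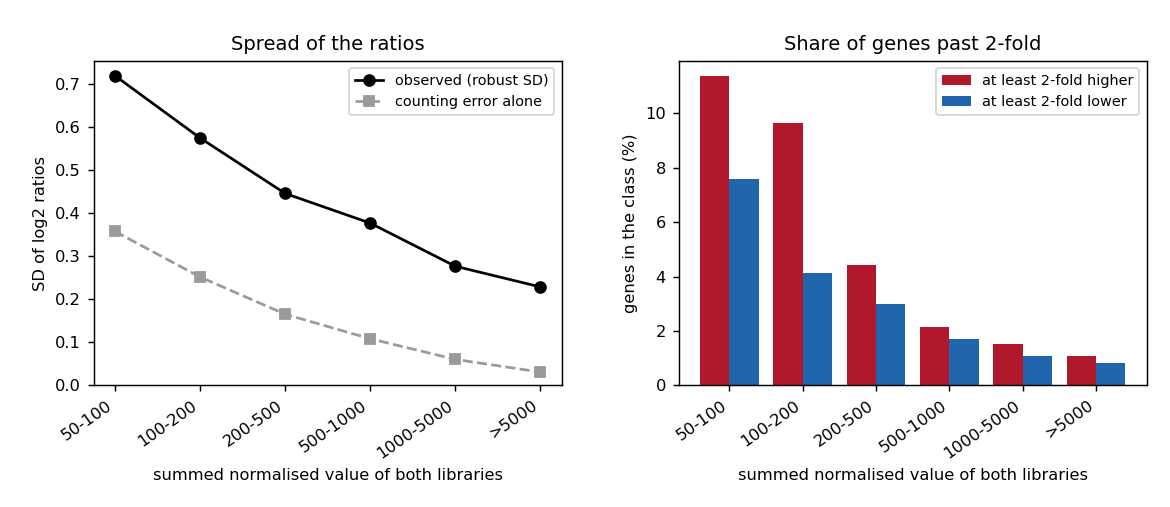
Left, the SD of the log2 ratios in 6 classes of summed normalised value, as observed (black) and as counting error alone would give (grey). Right, the share of genes at least 2-fold higher (red) or lower (blue) in each class. The observed SD went from 0.72 to 0.23 and stayed above the counting SD in all classes.

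The genes named first are those whose interval lay farthest from equality, 20 in each direction, among protein-coding genes that share no exon with another gene on the same strand. Of these 10516 genes, 314 (2.99%) were at least 2-fold higher and 196 (1.86%) lower. Several of the 20 higher genes were close to silent in control. Car6, a secreted carbonic anhydrase of saliva (chr4:150187015-150201332, GRCm38), had 16 reads in the control library and 545 with BPA, a log2 ratio of 4.90 (4.27 to 5.80). Avil, the actin-severing protein advillin (chr10:127000709-127020994), had 6 and 181 reads and a log2 ratio of 4.60 (3.65 to 6.27). Atp2a3, which encodes the calcium pump SERCA3 of the endoplasmic reticulum (chr11:72961169-72993044), had 7 and 153 reads and 4.16 (3.26 to 5.68). In each of these 3 genes a low level in control, from 6 to 16 reads, stood beside a clear level with BPA. Sspo, which encodes the secreted glycoprotein SCO-spondin, had 0 and 67 reads and Cabp1, a neuronal calcium-binding protein, 0 and 59. With 3 reads in place of 0 in control, Sspo was at least 20.7-fold higher and Cabp1 at least 18.2-fold higher. The regulator Klf15 went with them at 4 and 73 reads, Mest, an imprinted gene for a hydrolase-like protein, at 5 and 60, Prr32 at 5 and 76, Glrp1 at 3 and 71 and Gm19410 at 0 and 52.

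Lipid and energy enzymes were among the higher genes as well. Soat2, the enzyme that esterifies cholesterol for storage (chr15:102150526-102163469), had 17 reads in the control library and 226 with BPA, a log2 ratio of 3.55 (2.91 to 4.43). Acot2, a mitochondrial thioesterase that splits fatty acyl-CoA (chr12:83987861-83993873), had 152 and 1107 reads and 2.75 (2.51 to 3.01). Cox6a2, the muscle form of a cytochrome c oxidase subunit (chr7:128205435-128206387), had 72 and 531 reads and 2.75 (2.41 to 3.15). In all 3 genes the whole interval lay past 2-fold. They were named because their intervals lay far from equality, so this was fixed by the choice. Acot2 shares 37.3% of its 31-base words with another annotated gene, so its reads could be split between copies.

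The best counted of the 20 higher genes were Trib3, Cdsn and Slc6a9. Cdsn, corneodesmosin, an adhesion protein known from the cornified skin layer (chr17:35552128-35557180), had 667 and 4731 reads and a log2 ratio of 2.71 (2.60 to 2.83). Slc6a9, the glycine transporter GlyT1 (chr4:117834506-117875198), had 644 and 4517 reads and 2.70 (2.58 to 2.82). Trib3, a pseudokinase of the amino acid stress response, had 985 and 6890 reads and 2.69. All 3 thus stood near the same ratio from similar starting reads. Angptl6, a secreted angiopoietin-like protein (chr9:20873808-20879727), had 69 and 583 reads and 2.95 (2.61 to 3.35), and the stress cytokine Gdf15 had 15 and 131.

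The 20 lower genes include receptors, adhesion proteins and a keratin. Tlr4, the receptor for bacterial lipopolysaccharide (chr4:66827584-66930284), had 427 reads in the control library and 48 with BPA, a log2 ratio of -3.24 (-3.73 to -2.83). Kirrel, an immunoglobulin-type adhesion protein of the nephrin family (chr3:87078593-87174747), had 12462 and 2534 reads and -2.41 (-2.47 to -2.35). Krt7, a keratin of simple epithelia (chr15:101411043-101430313), had 168 and 15 reads and -3.51 (-4.47 to -2.83). Kirrel was the best counted gene of the 20, and its interval was the narrowest. The other epithelial markers that were members, Krt8 at 37 and 22 reads and Krt19 at 65 and 84, did not share the size of the Krt7 ratio. Gja5, which encodes the gap junction protein connexin 40, had 55 and 0 reads and was at least 19.8-fold lower with 3 reads in place of 0. Pcdhb19, a clustered protocadherin, had 58 and 0 reads.

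Secreted factors, enzymes and intracellular regulators were also among the 20 lower genes. Bmp4, a morphogen of the TGF-β family, had 1982 and 375 reads and a log2 ratio of -2.51. Igf1, insulin-like growth factor 1 (chr10:87858265-87937042), had 418 and 85 reads and -2.40 (-2.76 to -2.07). C1qtnf3, a secreted C1q-related protein, had 536 and 135 reads and -2.09, and the cytokine Il24 had 77 and 14. These secreted factors are among the 20 because of their low intervals, so their shared direction was fixed by the choice. Ak4, an adenylate kinase of the mitochondrial matrix (chr4:101419277-101466995), had 1782 and 373 reads and -2.36 (-2.53 to -2.21). Arrb1, β-arrestin 1, which uncouples G protein-coupled receptors, had 493 and 117 reads and -2.18 (-2.49 to -1.89). Rab22a, a small GTPase of early endosomes, had 2187 and 602 reads and -1.97 (-2.11 to -1.84). Scai, a repressor of the actin-responsive MRTF coactivators, had 609 and 122 reads and -2.42 (-2.72 to -2.15). The zinc finger gene Zfp62 (1314 and 226 reads), Ccdc71 (1383 and 269), Tmem164 (1148 and 293) and the phosphatase-1 regulator Ppp1r26 (57 and 5) were lower in the same range, from -2.08 to -3.37.

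**Figure D3:**
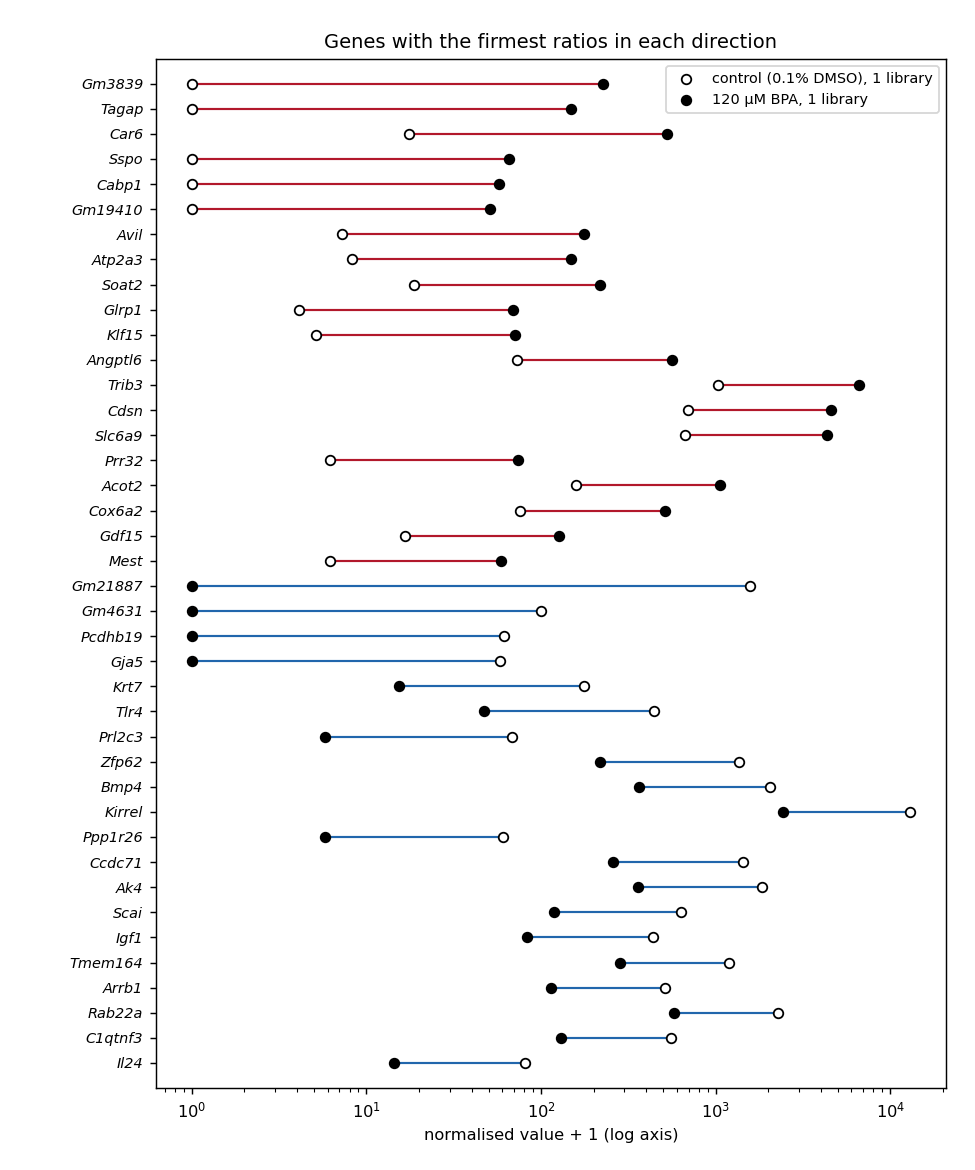
Normalised value plus 1 on a log axis for the 20 genes per direction with the interval farthest from equality, in the control library (open circles) and the BPA library (filled circles). Red lines join genes higher with BPA and blue lines genes lower, and points at 1 stand for 0 reads. Cdsn, Slc6a9 and Trib3 lie farthest right among the higher genes and Kirrel among the lower.

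Some of the widest ratios belonged to genes with near-identical copies, where reads can be assigned to either copy. Gm21887 had 1517 and 0 reads, but 62.0% of its 31-base words occur in another annotated gene. Erdr1, a copy annotated on the Y chromosome, had 1807 and 2595 reads, and the sum of the pair gave a log2 ratio of -0.47. Tagap, a GTPase-activating protein, had 0 and 153 reads and shares 54.9% of its words. Its copy Tagap1 had 1075 and 1437, and the sum of the pair gave 0.45. The single-gene ratios of Gm21887 and Tagap therefore shrank to well under 2-fold once the copies were added. Gm3839 (0 and 235 reads), the zinc finger gene Gm4631 (95 and 0) and Prl2c3, a member of the proliferin cluster (65 and 5), shared 67.8%, 50.8% and 67.0% of their words and are uncertain in the same way. Over all protein-coding members, 13.6% of the 368 genes with at least 50% of words shared passed 2-fold, against 4.96% of the 9462 genes with under 5% shared. Genes with an exon shared on the same strand passed 2-fold in 7.80% of 1243 cases, against 5.01% of 12241 without. The depth of these groups was not compared, and 2-fold ratios were more common at low depth, so the part of shared sequence was not tested.

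The largest absolute differences in normalised value were in abundant mRNAs. The mitochondrial ATP synthase subunit mt-Atp6 had 72384 reads in the control library and 12552 with BPA, a log2 ratio of -2.64. Its neighbour mt-Co3, a cytochrome oxidase subunit, had 63494 and 62355 reads and -0.14, and mt-Atp8, which overlaps it, 18904 and 15240 and -0.42. The exons of these 3 genes overlap in the annotation and 99.5% of the words of mt-Atp6 occur in another gene, so its reads cannot be assigned with certainty. The share of that ambiguity in its ratio was not tested. Of the mitochondrial ribosomal RNAs, mt-Rnr1 had 6498 and 14239 reads and mt-Rnr2 13926 and 15631. Together the 24 mitochondrially encoded members took 3.02% of reads in the control library and 2.97% with BPA. Among nuclear genes, Sqstm1, the autophagy receptor p62 (chr11:50199366-50210827), had 20364 and 56438 reads and a log2 ratio of 1.36, the only nuclear gene of the 15 largest differences that was higher with BPA. Lgals1, the sugar-binding galectin 1, had 70712 and 48108 reads and -0.67, and Eno1, the glycolytic enolase, had 81002 and 63087 and -0.47. Trp53 had 159652 and 129170 reads and -0.42, and in this line they can come from the introduced p53 as well as from the gene itself.

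Programmes were read through 73 gene lists, which held 3506 different members and 132 of the 713 genes past 2-fold. Each list is described by its counts and median. Over all members the median was 0.01, 51% were above 0 and 49% below, and 3.22% and 2.06% were past 2-fold higher and lower. A value for genes of the same depth is the middle, over the members, of the median ratios of their depth classes. It is coarse where members fall on both sides of a class limit. Hippo and purine and pyrimidine genes, for example, had median summed values of 5731 and 5615, near the limit of 5000. A pair of lists gives the scale. The 30 members of the ATF4 stress list were all above 0, with 17 at least 2-fold higher and a median of 1.11. The 30 members of the matrix and contractile list were all below 0, with 8 at least 2-fold lower and a median of -0.66. These 2 lists were composed with their direction known and are no independent evidence of it. No other list with at least 10 members had a median farther from 0 than -0.42.

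**Figure D4:**
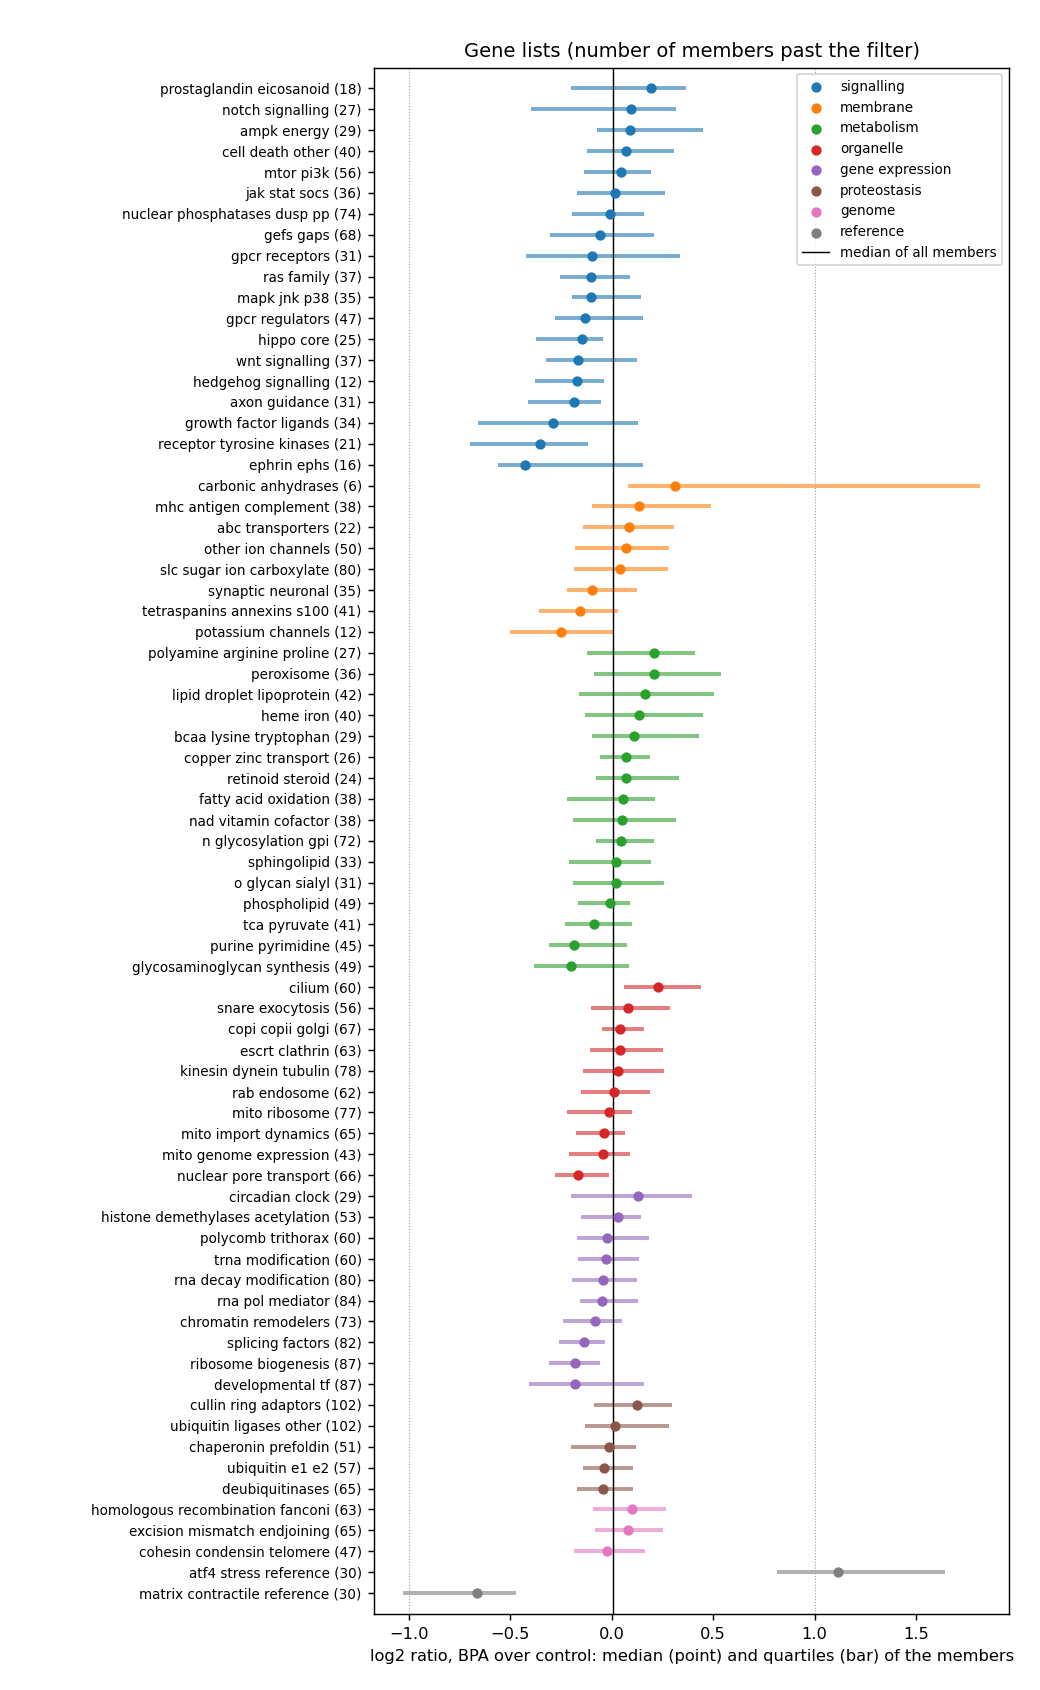
Median (point) and quartiles (bar) of the log2 ratios of the members of each of the 73 lists, by theme, with the number of members in brackets. The vertical line is the median of all members, 0.01, and the dotted lines mark 2-fold. Apart from the 2 reference lists at the bottom, medians lay close to 0, with ephrins and Eph receptors at -0.42 and carbonic anhydrases, with 6 members, at 0.31.

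Receptor tyrosine kinases, the membrane receptors through which growth factors drive proliferation and migration, were mostly lower with BPA. Of 38 genes listed 21 were members, 17 of them were below 0, against 49% of all members, and 1 was at least 2-fold lower. The median was -0.35. Ror1, a receptor for Wnt5a, had 247 and 115 reads and a log2 ratio of -1.21 (-1.55 to -0.89). The PDGF receptor gene Pdgfrb had 1368 and 775 reads and -0.93 (-1.06 to -0.80), and Pdgfra was at -0.61. Met, the receptor for hepatocyte growth factor, was at -0.73 and Egfr at -0.60. The most abundant member, Axl, a receptor for the ligand Gas6, had 20046 and 18857 reads and -0.20 (-0.23 to -0.17). Fgfr3, at 0.56, was the member farthest in the other direction. So the lower ratios were spread over several receptor families and were below 2-fold in all members but Ror1.

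Eph receptors and their membrane-bound ephrin ligands, which steer cells by contact, had 16 members of 20 listed, 11 below 0, and a median of -0.42. Epha3 had 95 and 32 reads and a log2 ratio of -1.65 (-2.31 to -1.09), the 1 member past 2-fold. Efnb2, the ephrin-B2 ligand, had 6434 and 3731 reads and -0.90 (-0.96 to -0.84). Epha2 had 11737 and 10583 reads and -0.26 (-0.30 to -0.22). The 5 members above 0, from Efnb3 at 0.16 to Efna2 at 0.38, included 4 ephrin genes and the receptor Ephb6. Of the semaphorins, plexins and other guidance genes, 24 of 31 members were below 0 with a median of -0.19, and Sema7a, a membrane-anchored semaphorin, had 137 and 55 reads and -1.41 (-1.91 to -0.97).

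Growth factor ligands were more often below 0 than above. Of 49 genes listed 34 were members, 22 were below 0 and 3 at least 2-fold lower, and the median was -0.29. Egf had 293 and 101 reads and a log2 ratio of -1.64 (-1.99 to -1.32), Pdgfb had 76 and 33 and -1.29 (-1.95 to -0.71), and Angptl4, an inhibitor of lipoprotein lipase, had 2331 and 1257 (interval -1.10 to -0.90). Csf1, the macrophage growth factor and most abundant member, had 19571 and 14806 reads and -0.51 (-0.55 to -0.48). Among members above 0, Vegfa, the main angiogenic factor, stood at 0.71, Grn, progranulin, at 0.64 and Artn, a ligand of the GDNF family, at 0.54. Ligands that act on the same receptor family did not all lie on 1 side: Vegfd was at -0.78 and Vegfb at -0.17, against 0.15 for Vegfc. The peritubular and fibroblast markers, 7 members that were all below 0, moved with these 3 lists, Pdgfra and Pdgfrb belong to both, and their part in the result was not tested.

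Wnt and hedgehog genes had medians of -0.16 over 37 members (of 61 listed) and -0.17 over 12 (of 19). The Wnt receptor Fzd2 had 3123 and 1779 reads and a log2 ratio of -0.92 (-1.01 to -0.84), and the ligand Wnt5a was at -0.60. Against them, Apc, the scaffold that targets β-catenin for destruction, had 1639 and 5012 reads and an interval from 1.42 to 1.58, the 1 Wnt member at least 2-fold higher. Ctnnb1, which encodes β-catenin, was at -0.32. In the hedgehog list Ptch1, the receptor and a standard target of the pathway, had 1086 and 911 reads and -0.36 (-0.49 to -0.24), whereas the target Gli1 was at 0.03. Of the Hippo pathway list 19 of 25 members were below 0, against 49% of all members. Its median was -0.14, against -0.07 for genes of the same depth. The coactivator Yap1 was at -0.04 and the DNA-binding partner Tead1 had 1652 and 1073 reads and -0.73 (-0.85 to -0.62).

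Cilium genes showed the most uniform shift towards higher values among the lists outside the reference pair with at least 30 members. The primary cilium is a sensory antenna that most cells build from the mother centriole when they stop dividing. Of 63 genes listed 60 were members, 49 (81.7%) were above 0 against 51% of all members, none passed 2-fold, and the median was 0.23. Tmem231, a transition zone protein, had 206 and 418 reads and a log2 ratio of 0.91 (0.67 to 1.16), and Bbs4, a subunit of the BBSome cargo adaptor, had 211 and 408 and 0.84 (0.60 to 1.09). Rfx2, a transcription factor for ciliary genes, had 140 and 268 reads and 0.82 (0.53 to 1.13). The BBSome subunits Bbs1, Bbs2, Bbs4, Bbs5, Bbs7, Bbs9 and Ttc8 ran from 0.09 to 0.84. Of the intraflagellar transport genes, Ift172 was at 0.52, Ift46 at 0.47 and Ift140 at 0.42, whereas Wdr35 was at -0.36 and Ift74 at -0.41. Pkd1, polycystin 1, the best counted member, had 3438 and 4448 reads and 0.26 (0.20 to 0.32). The shift was thus small in each gene, and of the 60 intervals 36 lay above equality and 6 below it, beside the 62.2% of all members whose interval left out equality in either direction.

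Peroxisomes, which shorten very long and branched fatty acids and break down hydrogen peroxide, had 36 members of 40 listed, 25 above 0, and a median of 0.21. Phyh, which starts the breakdown of phytanic acid, had 102 and 251 reads and a log2 ratio of 1.18 (0.85 to 1.53). Paox, a peroxisomal polyamine oxidase, had 101 and 245 and 1.16 (0.83 to 1.52), and Pex26, an anchor of the import machinery, had 249 and 500 and 0.89 (0.67 to 1.12). Catalase, Cat, was at 0.21. The import gene Pex3 lay below 0, at -0.54. So higher ratios were found in enzymes and import factors alike, without the whole organelle list moving together.

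**Figure D5:**
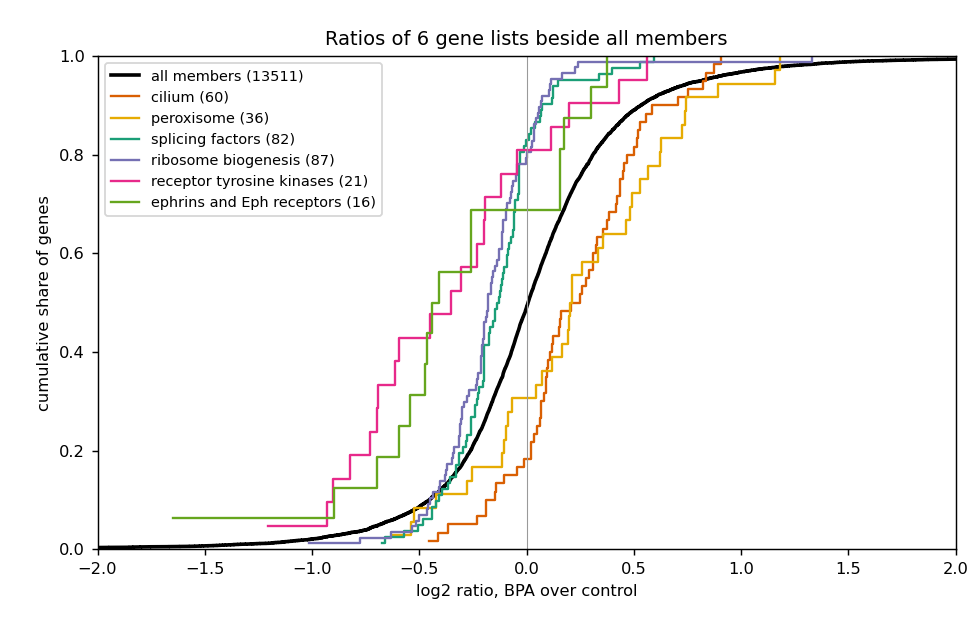
Cumulative share of genes (y axis) at or below each log2 ratio of BPA over control (x axis) for 6 lists and for all 13511 members (black). Cilium and peroxisome genes run to the right of the black line over most of their range. Splicing, ribosome biogenesis, receptor tyrosine kinase and Eph genes run to its left over most of theirs.

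Ribosome assembly and splicing genes were shifted slightly lower. Of 87 ribosome biogenesis members (of 89 listed), 69 were below 0, and the median was -0.18, against -0.07 for genes of the same depth. Fbl, the methyltransferase fibrillarin, had 5308 and 3699 reads and a log2 ratio of -0.63 (-0.69 to -0.57), and Tsr1, a factor of the small subunit, had 5357 and 3380 and -0.78 (-0.84 to -0.71). Rrp8, a nucleolar methyltransferase, had 2159 and 1156 and -1.01 (-1.12 to -0.91), the 1 member at least 2-fold lower. Wdr74, a nucleolar maturation factor, lay apart from the rest with 1107 and 3013 reads and 1.33 (1.23 to 1.43). Myc, which drives this programme in many cells, was at 0.07. All 82 splicing factors listed were members, 68 were below 0, against 49% of all members, and none passed 2-fold. Their median was -0.13, against -0.07 for genes of the same depth. Hnrnpa1 had 39692 and 28819 reads and -0.57 (-0.60 to -0.55), and Ptbp1, which represses alternative exons, had 13381 and 9071 and -0.67 (-0.71 to -0.63). The kinase Clk3, at 0.60, and Hnrnpc, at 0.53, were the members farthest above 0.

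Nuclear transport genes had 50 of 66 members below 0, against 49% of all members, and a median of -0.17. The 2 members at least 2-fold higher were import receptors, Kpna1 with 1751 and 4275 reads and a log2 ratio of 1.18 (1.10 to 1.26), and Tnpo1 with 4343 and 9732 and 1.05 (1.00 to 1.10). Syne3, which links the nuclear envelope to the cytoskeleton, was the 1 at least 2-fold lower, with 1809 and 967 reads and -1.01. Xpot, the exporter of transfer RNA, had 7097 and 12135 reads and 0.66. The export receptor Xpo1 and the importin Kpna2 were both at -0.31. Purine and pyrimidine synthesis genes had 31 of 45 members below 0 and a median of -0.19. In that list Cad, which starts pyrimidine synthesis, was at -0.49, Paics, a purine enzyme, at -0.40 and Samhd1, which removes deoxynucleotides, had 7130 and 4498 reads and -0.78 (-0.83 to -0.72). Past 2-fold were Ak4, described above, and Cmpk2, a mitochondrial nucleotide kinase, with 52 and 116 reads and 1.03. With reads scaled by library totals the medians of the ribosome biogenesis, splicing, nuclear transport and nucleotide lists were -0.10, -0.06, -0.09 and -0.11, a scaling that moved the median of all members by 0.08. As deposited, genes of the depth of these 4 lists had a median of -0.07.

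Mitochondrial lists of nuclear genes lay near 0. Mitochondrial ribosomal proteins had a median of -0.01 over 77 members, none past 2-fold, and import and dynamics genes had -0.04 over 65. Genes of their depth had a median of 0.04. Scaling by library totals moves all genes by 0.08 and so puts both list medians above 0, which is no result about these lists. Lonp1, the protease of the mitochondrial matrix, had 9039 and 18123 reads and a log2 ratio of 0.89 (0.86 to 0.93), and Mrps21, a protein of the small mitochondrial subunit, had 2339 and 1265 (interval -1.10 to -0.90). Of the pyruvate and citrate cycle genes 25 of 41 were below 0, with a median of -0.09. Their median summed value, 5848, lay near the limit of 5000 between depth classes with medians of 0.04 and -0.07. Here the transaminases that join the cycle to amino acids were high: Gpt2, which makes alanine, had 4116 and 11490 reads and 1.37 (1.32 to 1.42), and Got1, which makes aspartate, had 2089 and 5383 and 1.25 (1.18 to 1.33). The dehydrogenase subunits of the cycle itself, Idh3a, Idh3b and Idh3g, ran from -0.35 to -0.18.

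Polyamine, arginine and proline genes had 18 of 27 members above 0 and a median of 0.21. Pycr1, the last enzyme of proline synthesis, had 960 and 2999 reads and a log2 ratio of 1.53 (1.43 to 1.64), and Aldh18a1, which starts the same route, was at 0.57. Odc1, which makes putrescine, had 9796 and 13303 reads and 0.33, while Ddah1 and Ddah2, which clear methylated arginine, were at -0.88 and -1.01. Heme and iron genes had 25 of 40 members above 0, 3 of them at least 2-fold, and a median of 0.13. Blvrb, a biliverdin reductase, had 316 and 764 reads and 1.16 (0.97 to 1.36), Cp, the ferroxidase ceruloplasmin, had 104 and 233 and 1.05, and Steap1, of a family of metalloreductases, had 798 and 1728 with an interval from 0.88 to 1.13. Cpox, an enzyme of heme synthesis, had 5159 and 10771 reads and 0.95. The transferrin receptor Tfrc lay opposite at -0.82. Steps of heme synthesis were therefore not uniform, with Uros at -0.51 and Alas1, the first enzyme, at 0.53.

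Lipid storage and lipoprotein genes had 29 of 42 members above 0, 3 at least 2-fold higher, and a median of 0.16. Besides Soat2, these were Apobr, an uptake receptor for lipoproteins, with 147 and 520 reads and a log2 ratio of 1.70 (1.44 to 1.99), and Vldlr, the very-low-density lipoprotein receptor, with 1594 and 3555 and 1.05 (0.96 to 1.13). Soat1, the other enzyme that esterifies cholesterol, was at 0.03. The droplet coat genes split, with Plin2 at -0.48 and Plin3 at 0.43. Glycosaminoglycan synthesis genes, whose products fill the matrix between cells, had 33 of 49 members below 0 and a median of -0.20. Has2, a hyaluronan synthase, had 113 and 25 reads and -2.24 (-2.98 to -1.65), Dse, which makes dermatan sulfate, had 3519 and 2254 and -0.75 (-0.83 to -0.68), and Extl1, a heparan sulfate transferase, lay opposite with 54 and 198 reads and 1.74 (1.32 to 2.22).

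Adaptors of cullin-RING ubiquitin ligases, which choose the proteins to be degraded, had 66 of 102 members above 0 and a median of 0.12. Klhl20 had 745 and 1800 reads and a log2 ratio of 1.16 (1.04 to 1.29), Klhl24 was at 1.11 (0.94 to 1.28), and Fbxl16, with only 17 and 46 reads, at 1.28 (0.49 to 2.22). Skp2, which targets cell cycle inhibitors, was the 1 adaptor at least 2-fold lower, at 1976 and 796 reads and -1.42 (-1.54 to -1.30). Other ubiquitin ligases had 54 of 102 members above 0, 2 at least 2-fold higher and 2 lower, and a median of 0.02. The higher were Neurl1b, with 22 and 120 reads and 2.29, and Trim46, with 236 and 595 and 1.22. The lower were Rnf8, with 1186 and 417 reads and -1.62, and Trim16, with 2520 and 930 and -1.55, and both share an exon with another gene. Developmental transcription factors were below 0 in 55 of 87 members (of 116 listed), with a median of -0.18. Sox11 had 2802 and 1436 reads and -1.08 (-1.17 to -0.98), Snai1 and Twist2, factors of mesenchymal cells, were at -0.89 and -0.88, and Runx1 and Runx2 at -0.84 and -0.74. The 2 members at least 2-fold higher lay opposite. Cebpb, a factor of stress and inflammatory responses, had 483 and 1184 reads and 1.18 (1.03 to 1.34). Osr2 had 34 and 77 reads and 1.05 (0.47 to 1.69).

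Promoters of the higher genes were searched for short motifs in the window from 250 bases before to 50 after the RefSeq start (GRCm38.p6). A promoter was matched for 9277 of the 11580 protein-coding members (80.1%). Motifs were sought on both strands, none contains another, and matches of different motifs may share letters. TTGCATC, the core of the element bound by ATF4 with a C/EBP partner, was found in 15 of 287 genes at least 2-fold higher (5.23%), 3 of 158 at least 2-fold lower (1.90%) and 168 of all 9277 (1.81%). Of the 15, 4 were in the ATF4 stress list, and among the other 272 higher genes 11 held it (4.04%). That list is a short one of 31 genes kept for scale, so a gene outside it need not lie outside the stress response. TGANTCA, an AP-1 type motif, stood in 8.36% of the higher, 8.23% of the lower and 4.61% of all promoters, and TATAAA in 10.1%, 6.96% and 6.35%. The share of CACGTG, the E-box, was 7.32% in the higher genes, 6.96% in the lower and 10.4% in all. Shares in the higher, the lower and all genes were 10.1%, 5.70% and 12.4% for TGACGT, the core of the cyclic AMP element, and 12.5%, 12.0% and 14.9% for GGAAGTG, an ETS type motif. They were 39.7%, 34.8% and 39.7% for CCAAT, the box bound by NF-Y, and 68.6%, 64.6% and 62.3% for CACCC, a Krüppel type motif. ACATTCC, a TEAD type motif, was in 2.09%, 4.43% and 2.44%. Over all protein-coding members, the median summed value was 240 in the higher genes and 369 in the lower, against 2489 in those within 2-fold. Motif shares were not compared at equal depth. A match of letters is a description and not a binding site.

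The stretches shown are 120 bases of the promoter with TTGCATC or its reverse complement in capitals, from 4 higher genes outside the ATF4 list and 1 lower gene that holds it too. They are read 5′ to 3′ on the strand of the gene. Avil lies at chr10:127000589-127000708, plus strand, Got1 at chr19:43524644-43524763, minus strand, Chchd10 at chr10:75932990-75933109, plus strand, Phyh at chr2:4918772-4918891, plus strand, and Gadd45g at chr13:51846518-51846637, plus strand.
Avil: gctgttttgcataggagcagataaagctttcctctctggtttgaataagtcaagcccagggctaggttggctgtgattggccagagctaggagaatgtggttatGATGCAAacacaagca
Got1: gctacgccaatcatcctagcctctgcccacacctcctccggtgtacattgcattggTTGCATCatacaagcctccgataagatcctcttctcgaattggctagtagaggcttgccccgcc
Chchd10: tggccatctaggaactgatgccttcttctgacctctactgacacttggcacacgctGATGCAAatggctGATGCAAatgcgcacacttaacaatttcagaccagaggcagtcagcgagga
Phyh: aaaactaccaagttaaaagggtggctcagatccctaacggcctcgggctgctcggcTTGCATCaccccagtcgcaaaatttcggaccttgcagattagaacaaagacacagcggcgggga
Gadd45g: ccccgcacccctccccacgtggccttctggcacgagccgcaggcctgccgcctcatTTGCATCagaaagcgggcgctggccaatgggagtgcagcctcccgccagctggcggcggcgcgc

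Avil had 6 and 181 reads, and its match began 16 bases before the start. Got1 carried 1 match, 102 bases before the start. Chchd10, a protein between the mitochondrial membranes, had 385 and 1233 reads and a log2 ratio of 1.57, and its promoter held the word in 2 close copies. Phyh, the peroxisomal enzyme above, had its match 168 bases before the start. Gadd45g, a stress-inducible growth regulator, held the same letters 101 bases before the start, yet had 5745 and 2735 reads and -1.18 (-1.25 to -1.12). The same word therefore occurred in genes of both directions.

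Position, base composition and gene class were set beside the ratios. By chromosome, with 20 or more members each, the nuclear share at least 2-fold higher ran from 2.49% on chromosome 16 to 4.19% on chromosome 12, and the share lower from 0.649% on chromosome 19 to 2.75% on chromosome 14. The median GC content of the longest transcript was 50.9% in the 362 higher protein-coding genes, 50.3% in the 221 lower ones and 49.6% in those within 2-fold. Median transcript lengths were 3031, 3555 and 3470 bases. From the shortest to the longest quintile of transcripts the median ratio went from 0.05 to -0.03. By gene class, 3.13% of 11580 protein-coding members were at least 2-fold higher, against 14.3% of 28 transcribed unprocessed pseudogenes, 11.5% of 26 long noncoding RNAs from bidirectional promoters, 9.27% of 151 processed transcripts and a smaller share of the processed pseudogenes, whose median ratio was -0.10. The depth of these classes was not compared.

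The authors' deposited table lists an unadjusted p-value under 0.05 for 147 of the 13511 members and an adjusted one under 0.05 for 0 of them, the lowest being 0.961. They come from 1 library against 1, and nothing here rests on them.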

How the data were processed

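Strand-specific mRNA libraries of 1 control and 1 BPA culture were compared, grouped by their titles. The deposited values were log2 values. Per the submitters' processing notes, STAR and StringTie and the builds GRCm38 and mm10 were used; no version, read counter or filter is given in the sources used here. In the deposited log2 table, 2 to the power of each value, less 1, was a whole multiple of 1.03943 (control) or 0.962066 (BPA) within 0.001 for 100% of values, so whole reads were recovered. The authors' scaling was kept and a pseudocount of 1 used. The deposited p-values and adjusted p-values are the authors' own, from a test not given in the sources used here.

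Genes with a summed normalised value of at least 50 were members, 13484 of which (99.8%) matched GENCODE M21 by identifier. Ratios, medians and Clopper-Pearson intervals were computed with SciPy 1.17.1, and the code was tested on simulated data. A gene shares exons when an exon overlaps one of another gene on the same strand, and words are all 31-base stretches of its transcripts. With 1 library per group no test was made. Named were 20 genes per direction by the interval bound nearest 0, 15 by the absolute difference in normalised value, and up to 4 per list of at least 5 members by the size of the ratio plus the most abundant; further list members, the copies of named genes and the genes with a promoter match were chosen after their values were seen. Members and lists were chosen with earlier results of these data known. Alternatives were CPM and TMM (trimmed mean of M-values) scaling, other pseudocounts, filters, folds and gene sets; TMM was coded directly, since the deposited unit was log2 and not counts.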

Additional observations from a re-analysis of the deposited data

How the results depend on the processing

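With reads scaled by library totals (CPM) in place of the deposited size factors, the median of all members moved by 0.08 on the log2 scale and all ratios with it; with TMM it moved by -0.01. Among genes past 2-fold, 61.01% were higher as deposited, 69.1% with CPM and 60.1% with TMM. The counts of 435 higher and 278 lower genes were 1108 and 778 with a summed value of at least 10, 207 and 149 with at least 200, and 2978 and 2381 with no filter. They were 1154 and 901 at 1.5-fold, 135 and 74 at 3-fold, and 194 and 125 with the counting interval wholly past 2-fold. CPM, TMM, pseudocounts of 5 and 0.5, and the restriction to protein-coding genes without shared exons kept both counts within 1.5 times. With CPM, list medians were -0.066 for Hippo, -0.0085 for pyruvate and citrate cycle, -0.11 for purine and pyrimidine, 0.12 for COPI, COPII and Golgi, -0.090 for nuclear transport, -0.055 for splicing, -0.10 for ribosome biogenesis, -0.0021 for chromatin remodellers, 0.063 for chaperonin and prefoldin, 0.042 for ubiquitin E1 and E2, 1.19 for the ATF4 list and -0.58 for the matrix list. The matrix median was -0.71 at a summed value of at least 200. The eicosanoid median was 0.0083 at a summed value of at least 10 and -0.0069 with no filter, and that of polyamine, arginine and proline 0.32 with no filter. The list medians given so far moved by more than the middle counting half-interval of their members. Within that tolerance, the Eph and ephrin median was -0.33 at a summed value of at least 200 and with no filter. That of growth factor ligands was -0.20 at a summed value of at least 10. Of 402 named genes, 154 were past 2-fold, and 142 of them stayed so with CPM, 152 with TMM, 154 with a pseudocount of 0.5 and 146 with 5. Depth limits the genes nearest the summed value of 50. No paired analysis was possible because each group has 1 library, and none could be left out.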

Other observations

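Clock genes did not lie on 1 side. Of 32 genes listed 29 were members, 18 were above 0 and the median log2 ratio was 0.13. Ciart, a repressor of the clock activators, had 444 reads in the control library and 1187 with BPA and stood at 1.31 (1.15 to 1.47). Noct, a rhythmic phosphatase of nicotinamide dinucleotides, had 3775 and 1619 and stood at -1.33 (-1.42 to -1.25). Of the core repressors, Cry1 was at 0.69 and Per1 at -0.71, and of the activators Arntl was at 0.36 and Clock at -0.64. Genes of antigen presentation and complement had 24 of 38 members above 0 and a median of 0.13. There the peptide transporter Tap1 was at 0.79 and the class I heavy chain H2-K1 at 0.57, while B2m, the class I light chain, was at -0.02.

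Channels and small membrane proteins held some wide ratios in few reads. P2rx3, an ATP-gated channel of sensory neurons, had 21 and 145 reads and 2.62 (2.01 to 3.41), and Lrrc8d, a subunit of the volume-regulated anion channel, had 52 and 339 and 2.57 (2.17 to 3.04). Ptger1, a prostaglandin E2 receptor, had 45 and 270 reads and 2.45. The calcium channel Cacna1g (119 and 46 reads) lay opposite, at -1.46. Of the tetraspanin, annexin and S100 genes 28 of 41 members were below 0, with a median of -0.16. The 3 of them at least 2-fold lower were S100a7a, with 1224 and 510 reads, Tspan2, with 73 and 30, and Tspan5, with 1665 and 870. By symbol stem, 193 of 327 Zfp genes (median 0.09) and 102 of 157 Tmem genes (median 0.12) were above 0, and 9 of 49 Rpl genes (median -0.16) were. Of all members 51% were above 0. Genes of the depth of these 3 families, taken by class as for the lists, had medians of 0.06, 0.04 and -0.07. The part of depth in each shift was not tested.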
